A study of Mus musculus with 18 samples.

Results

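The 10 genes described here, of 19197 with a value in each library, encode the machinery by which cells show peptides from endocytosed protein to CD4+ T cells. They were picked by name: the class II chain genes H2-Aa, H2-Ab1 and H2-Eb1, the invariant chain gene Cd74, the peptide-loading genes H2-DMa, H2-DMb1 and H2-Oa, the regulator gene Ciita, the protease gene Ctss and the costimulatory ligand gene Cd86. They were chosen from earlier results on the same hearts, in which their levels across the groups were known. Their differences between groups are therefore given as a description, with a standard error (SE) and no p, and support nothing by themselves.

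Class II molecules are pairs of an alpha and a beta chain at the surface of dendritic cells, B cells and macrophages. The chains are built in the endoplasmic reticulum around the invariant chain, which fills the peptide groove and steers the complex to endosomes. Proteases there, cathepsin S (Ctss) among them, trim the invariant chain to a short remnant, the H2-DM dimer exchanges that remnant for a peptide, and the H2-O dimer restrains H2-DM. Ciita, the class II transactivator, does not bind DNA itself. It docks on a complex of RFX, CREB and NF-Y proteins on the X and Y boxes upstream of the class II, invariant chain and H2-DM genes, and interferon gamma is its best known inducer. In the heart the main cells with class II are resident and recruited macrophages and dendritic cells.

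RNA was sequenced from the apex of 18 hearts of C57BL/6 mice, all perfused and frozen 1 day after surgery, in 3 groups of 6. MI_DCA hearts had a myocardial infarction (MI) and DCA at 10 mg/kg per day, MI_vehicle hearts had an infarction and vehicle, and sham_vehicle hearts had a sham operation and vehicle. The labels do not spell out DCA, which is read here as deoxycholic acid, a bile acid made by gut bacteria, since the title pairs it with the bile acid receptor TGR5. The labels read here give neither the age and sex of the mice nor whether each library is a separate mouse. The p-values therefore cover the spread between libraries, which may be technical. Values are FPKM, a read number scaled to the transcript's length and to the library's depth, as the authors deposited them, and errors after ± are SDs over the 6 hearts of a group. A fold change is a difference of log2(FPKM + 1), which understates changes of low genes. There was no group given DCA without infarction, so DCA was compared only among infarcted hearts and with sham hearts.

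The infarcted hearts did not form 1 cloud. The first principal component of all 18 libraries carried 70.3% of the variance and ran from sham hearts, at -41.4 to -33.3, to the most changed infarcted hearts, at up to 55.0. MI_DCA replicates 1, 3 and 5 (-25.5 to -14.5) and MI_vehicle replicate 4 (-15.0) lay on the sham side of 0, while the other 8 infarcted hearts scored 16.7 or more. The members' fold changes and counts between groups, and the counts of pathway genes, are given below with and without these 4 hearts, which were identified from the data; marker sums are given with all hearts. Depth, estimated from the steps of low values, lay between 9600000 and 13800000 mapped reads. Cardiomyocyte genes dominated every library, with a summed level of the 6 markers between 9975 and 23855 FPKM, as fits the labelled tissue.

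Sequences upstream of 5 of the 10 genes are shown first, to look for the letters of the boxes known as the docking site of Ciita's partners. They span bases 120 to 21 before the annotated start on the gene's own strand and come from RefSeq on build GRCm38.p6. Capitals mark the half-site GNAAC, part of the X box, and the Y box GATTGG.

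H2-Aa (chr17:34287844-34287943, minus strand): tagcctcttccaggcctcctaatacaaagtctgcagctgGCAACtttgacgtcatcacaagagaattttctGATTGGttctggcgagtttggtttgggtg
H2-Eb1 (chr17:34305747-34305846, plus strand): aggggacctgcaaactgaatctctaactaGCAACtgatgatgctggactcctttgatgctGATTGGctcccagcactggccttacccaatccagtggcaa
H2-DMb1 (chr17:34153071-34153170, plus strand): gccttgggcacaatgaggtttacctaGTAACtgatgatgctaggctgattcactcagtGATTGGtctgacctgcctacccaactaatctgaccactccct
H2-Oa (chr17:34092259-34092358, plus strand): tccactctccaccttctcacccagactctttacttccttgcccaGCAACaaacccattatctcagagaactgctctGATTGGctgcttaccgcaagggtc
Ctss (chr3:95526666-95526765, plus strand): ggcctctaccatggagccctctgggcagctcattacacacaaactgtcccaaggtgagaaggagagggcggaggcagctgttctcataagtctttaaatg

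In the first 4 sequences GNAAC preceded GATTGG on the same strand with 26 or 27 bases between them, and the Ctss stretch held no such pair. The table has windows for 6 of the 10 genes, H2-DMa with 2 of them, and 4 of these 7 windows held the pair at a spacing of 20 to 35 bases within 250 bases of the start. Of all 32851 promoter windows of the same length, searched on both strands, 259 (0.788%) held it, among them those of the class II chains H2-Eb2 and H2-Ob. GATTGG alone stood in 14.6% of all windows and in 5 of the 7. A longer X core, ACAGATG, followed by GATTGG at 10 to 35 bases stood in 9 of all windows (0.0274%) and in none of the 7, and the shorter GNAAC was taken only after these windows had been read. The share of 4 in 7 is therefore a description, and a match of letters is not a shown site.

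The class II chains and the invariant chain all had their highest group mean in MI_vehicle hearts. Cd74 had the highest mean FPKM of all members in MI_DCA, MI_vehicle and sham_vehicle hearts alike. H2-Ab1, the beta chain of the I-A molecule, had a lowest, median and highest value of 24.0, 43.7 and 51.8 FPKM in MI_DCA hearts, 55.1, 66.5 and 71.9 FPKM in MI_vehicle hearts and 33.1, 37.4 and 54.3 FPKM in sham_vehicle hearts. Every MI_DCA heart lay below every MI_vehicle heart, and the MI_vehicle hearts lay above all sham hearts, if narrowly. Since the tissue was bulk, fewer cells that carry class II and less RNA per such cell cannot be told apart. H2-Aa, the I-A alpha chain, had 22.4, 45.3 and 50.6 FPKM in MI_DCA hearts, 57.9, 70.0 and 74.8 FPKM in MI_vehicle hearts and 38.3, 41.0 and 62.2 FPKM in sham_vehicle hearts. H2-Eb1, the beta chain of I-E, had 10.3, 19.1 and 20.2 FPKM in MI_DCA hearts, 22.8, 29.1 and 32.8 FPKM in MI_vehicle hearts and 17.6, 18.3 and 27.4 FPKM in sham_vehicle hearts. For both chains the MI_DCA and MI_vehicle hearts were apart, while the MI_vehicle hearts overlapped the sham hearts through sham replicate 1. C57BL/6 mice carry a defective I-E alpha gene and so make no I-E at the cell surface.

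Cd74 had 74.2, 135 and 153 FPKM in MI_DCA hearts, 175, 198 and 226 FPKM in MI_vehicle hearts and 116, 133 and 181 FPKM in sham_vehicle hearts. The MI_DCA and MI_vehicle hearts again did not overlap. Its longer transcript, which adds a thyroglobulin-type domain, made up 16.3% ± 2.47 of the 2 Cd74 transcripts in MI_DCA hearts, 17.6% ± 0.785 in MI_vehicle hearts and 21.1% ± 3.99 in sham_vehicle hearts (SD, n = 6 each). These shares overlapped between all groups.

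**Figure D1:**
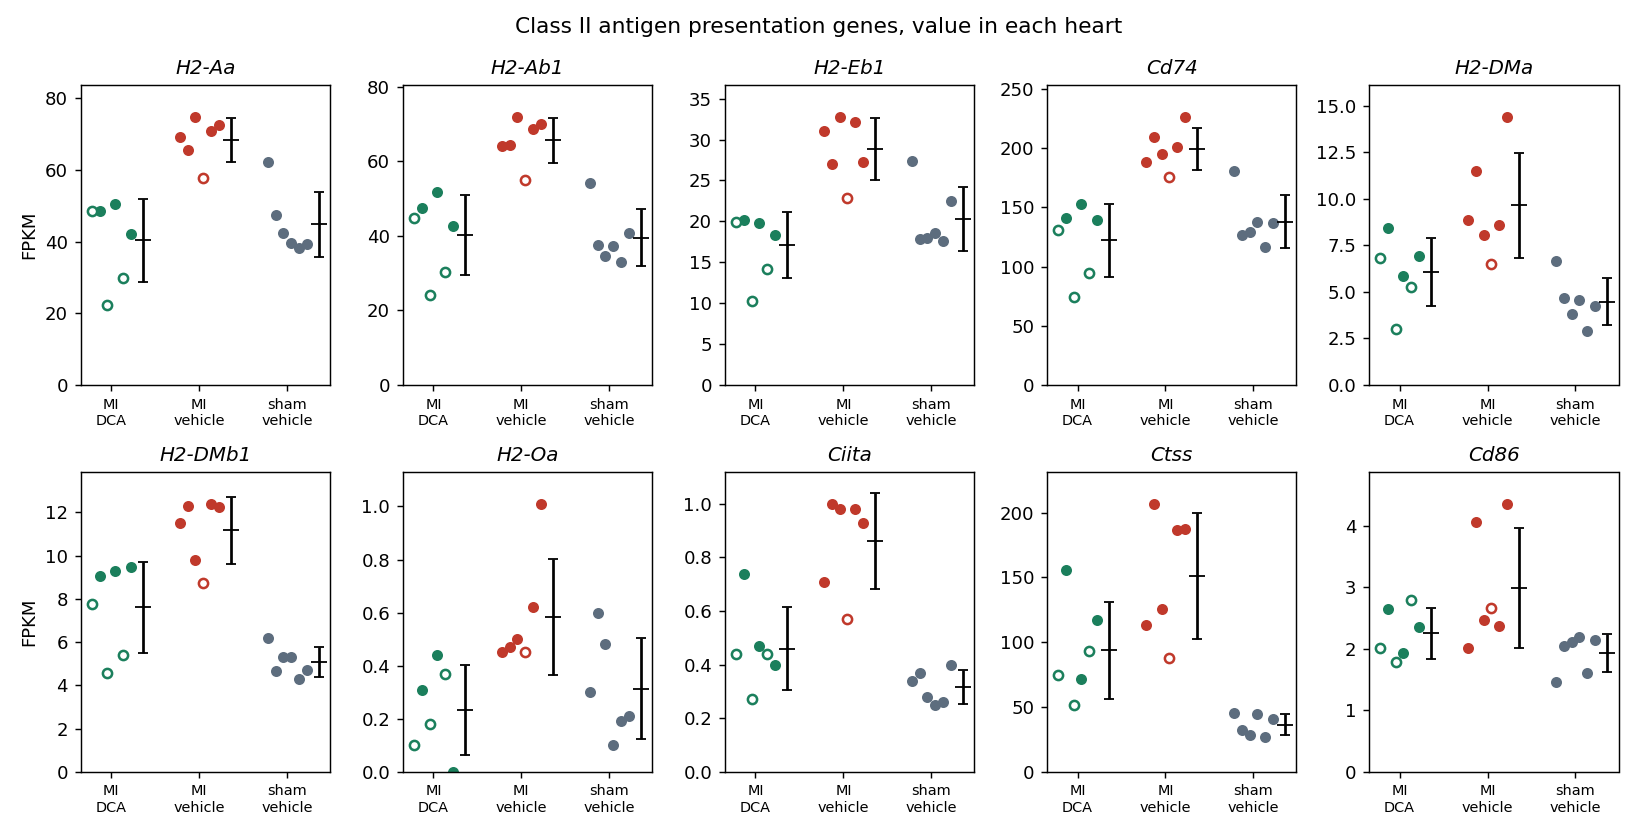
FPKM of the 10 genes in each heart (points), by group, with the mean and SD as a bar beside them; open points are the 4 infarcted hearts on the sham side of the first principal component. In H2-Aa, H2-Ab1, H2-Eb1, Cd74 and H2-Oa all 6 MI_DCA hearts lie below all 6 MI_vehicle hearts, and in Ctss all 12 infarcted hearts lie above the 6 sham hearts.

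The loading genes had lower FPKM than the chains. H2-DMa, the alpha chain of the peptide exchanger, averaged 6.06 ± 1.84 FPKM in MI_DCA hearts, 9.65 ± 2.83 FPKM in MI_vehicle hearts and 4.48 ± 1.24 FPKM in sham_vehicle hearts. H2-DMb1, its beta chain, averaged 7.60 ± 2.12 FPKM in MI_DCA hearts, 11.2 ± 1.54 FPKM in MI_vehicle hearts and 5.07 ± 0.684 FPKM in sham_vehicle hearts. The MI_DCA hearts overlapped the MI_vehicle hearts in both genes, and only H2-DMb1 placed all MI_vehicle hearts above the sham hearts. Of the 50-base stretches of the H2-DMb1 transcript, 27.2% also occur in its neighbour and near copy H2-DMb2, so reads may have been split between these 2 genes and the H2-DMb1 level is uncertain. No other member shared a 50-base stretch with another gene.

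H2-Oa, the alpha chain of the H2-DM inhibitor, was near the limit of detection, with 0, 0.245 and 0.44 FPKM in MI_DCA hearts, 0.45, 0.485 and 1.01 FPKM in MI_vehicle hearts and 0.10, 0.255 and 0.60 FPKM in sham_vehicle hearts. One read was worth about 0.0697 to 0.10 FPKM for this gene, so these values stand for a handful of reads, and the gap between the MI_DCA and MI_vehicle hearts is smaller than 1 read. MI_DCA replicate 6 was listed at 0.

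Ciita was low as well and had 0.27, 0.44 and 0.74 FPKM in MI_DCA hearts, 0.57, 0.955 and 1.00 FPKM in MI_vehicle hearts and 0.25, 0.31 and 0.40 FPKM in sham_vehicle hearts. Every MI_vehicle heart exceeded every sham heart, whereas MI_DCA replicate 2, at 0.74 FPKM, exceeded MI_vehicle replicates 1 and 4. The mean in MI_DCA hearts was 0.534 times that in MI_vehicle hearts, and the mean in MI_vehicle hearts was 2.72 times that in sham hearts. Of 9 Ciita transcripts in the files, 1 (XM_006521725.3) carried most of the value, at 0.397 FPKM in MI_DCA hearts, 0.775 FPKM in MI_vehicle hearts and 0.285 FPKM in sham_vehicle hearts, and the other 8 averaged under 0.1 FPKM in every group. Ciita has alternative promoters that differ between dendritic cells, B cells and interferon-treated cells, but at this level the transcript shares rest on few reads.

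Ctss, the gene of cathepsin S, was the member with the widest spread between groups. It had 51.3, 84.0 and 155 FPKM in MI_DCA hearts, 87.5, 156 and 207 FPKM in MI_vehicle hearts and 26.6, 36.4 and 45.7 FPKM in sham_vehicle hearts. All 12 infarcted hearts lay above all 6 sham hearts, and the 2 infarcted groups overlapped. Cd86, a ligand of the T cell receptors Cd28 and Ctla4, averaged 2.25 ± 0.413 FPKM in MI_DCA hearts, 2.99 ± 0.974 FPKM in MI_vehicle hearts and 1.93 ± 0.313 FPKM in sham_vehicle hearts. It overlapped between every pair of groups.

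Set side by side, the comparisons with sham divide the members. The MI_vehicle hearts differed from sham hearts by log2 fold changes of 0.49 (SE 0.12) for H2-Eb1, 0.54 (SE 0.11) for Cd74, 0.61 (SE 0.11) for H2-Aa and 0.73 (SE 0.11) for H2-Ab1. The loading genes stood at 0.95 (SE 0.18) for H2-DMa and 1.00 (SE 0.10) for H2-DMb1, Cd86 at 0.42 (SE 0.14), and Ctss at 1.99 (SE 0.21). Without MI_vehicle replicate 4 they were 0.55 for H2-Eb1, 0.57 for Cd74, 0.66 for H2-Aa, 0.78 for H2-Ab1, 1.04 for H2-DMa, 1.06 for H2-DMb1, 0.44 for Cd86 and 2.13 for Ctss. In MI_DCA hearts against the same sham hearts, H2-Ab1 stood at -0.01 (SE 0.18), H2-Aa at -0.19 (SE 0.20), Cd74 at -0.20 (SE 0.17) and H2-Eb1 at -0.25 (SE 0.16), while H2-DMa stood at 0.35 (SE 0.20), H2-DMb1 at 0.47 (SE 0.16), Cd86 at 0.15 (SE 0.10) and Ctss at 1.28 (SE 0.24). Below the filter, H2-Oa stood at -0.09 and Ciita at 0.14 on the same scale. The chains, Cd74 and H2-Oa were thus at or below 0 there, and the other accessory genes above it. Without MI_DCA replicates 1, 3 and 5 the chains stood slightly above sham in place of below, at 0.27 for H2-Ab1 and 0.09 for H2-Aa, with Cd74 at 0.08 and H2-Eb1 at -0.04. The accessory genes then stood at 0.58 for H2-DMa, 0.77 for H2-DMb1, 0.18 for Cd86 and 1.59 for Ctss. Both comparisons use the same sham hearts and are not independent.

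Between MI_DCA and MI_vehicle hearts all 8 genes above the low-value filter had negative log2 fold changes. They were -0.80 (SE 0.18) for H2-Aa, -0.75 (SE 0.16) for H2-Eb1, -0.74 (SE 0.17) for Cd74 and -0.74 (SE 0.17) for H2-Ab1. For the accessory genes they were -0.71 (SE 0.28) for Ctss, -0.60 (SE 0.21) for H2-DMa, -0.53 (SE 0.17) for H2-DMb1 and -0.27 (SE 0.15) for Cd86. The filter asked for 1 FPKM in at least 6 of the 12 libraries compared and left out Ciita and H2-Oa, whose differences were -0.35 and -0.36 on the same scale. The median over all 12004 genes tested was -0.065. Without the 4 hearts nearest sham, which leaves 3 MI_DCA and 5 MI_vehicle hearts, H2-Aa stood at -0.58, H2-Eb1 at -0.60, Cd74 at -0.49, H2-Ab1 at -0.51, Ctss at -0.54, H2-DMa at -0.46, H2-DMb1 at -0.30 and Cd86 at -0.26.

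**Figure D2:**
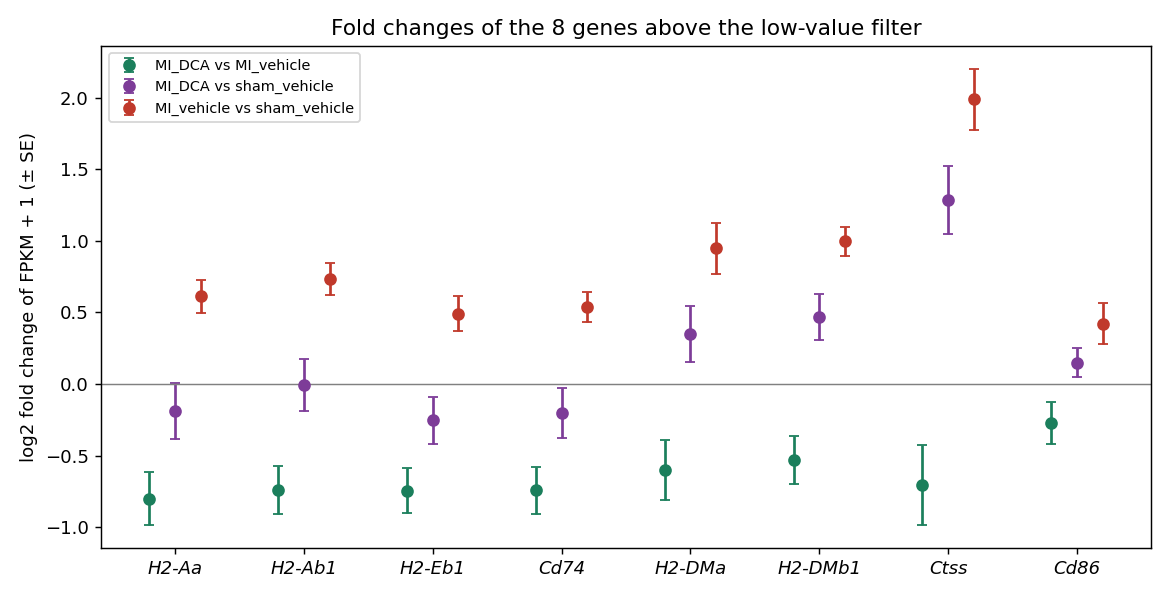
Fold change (log2 of FPKM + 1, with SE) of the 8 genes above the filter, for MI_DCA against MI_vehicle (left point), MI_DCA against sham_vehicle (middle) and MI_vehicle against sham_vehicle (right). H2-Aa, H2-Ab1, H2-Eb1 and Cd74 lie near 0 or below in MI_DCA against sham, at -0.25 to -0.01, and Ctss lies at 1.28.

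By limma over all genes no member was called between MI_DCA and MI_vehicle hearts, where 0% of genes were called lower and 0% higher at an adjusted p under 0.05. At an unadjusted p under 0.05, 7 of the 8 members were lower, against 9.22% of all genes (1107), and none was higher, against 1.6% (192). In 4 of the 8 the groups did not overlap, with MI_DCA lower, against 0.467% of all genes tested, and H2-Oa below the filter made it 5 of 10. Without the 4 hearts nearest sham these counts were 5 of 8 and 6 of 10, against 6.22% of all genes, H2-DMb1 being the added gene. Between MI_vehicle and sham hearts all 8 members were called higher, against 38.3% of all genes, and none lower, against 20.1%. The groups did not overlap in 3 of the 8, against 16.1%, and in Ciita. Between MI_DCA and sham hearts 2 of the 8, H2-DMb1 and Ctss, were called higher, against 15.5%, and Ctss alone did not overlap, against 6.31%. The 10 genes had been chosen on their levels in these hearts, so nothing is read from these counts.

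Relative to H2-Ab1 in the same heart the accessory genes differed among themselves. Ctss stood at 238% ± 77.1 of H2-Ab1 in MI_DCA hearts, 229% ± 67.1 in MI_vehicle hearts and 92.2% ± 15.4 in sham_vehicle hearts (SD, n = 6 each). The 2 infarcted groups overlapped and both lay above the highest sham heart, at 120%. H2-DMb1 stood at 18.9% ± 1.75 in MI_DCA hearts, 17.0% ± 1.96 in MI_vehicle hearts and 13% ± 1.59 in sham_vehicle hearts, and Ciita at 1.16% ± 0.278 in MI_DCA hearts, 1.30% ± 0.197 in MI_vehicle hearts and 0.810% ± 0.151 in sham_vehicle hearts. The mean of Ciita per H2-Ab1 was thus of like size in both infarcted groups and lower in sham. Every MI_vehicle heart stood above the highest sham heart, at 0.985%. The MI_DCA hearts, from 0.907% up, overlapped the sham hearts. H2-Eb1 went the other way, at 42.9% ± 2.78 in MI_DCA hearts, 43.9% ± 3.64 in MI_vehicle hearts and 51.5% ± 2.68 in sham_vehicle hearts, as did Cd74, at 305% ± 12.97 in MI_DCA hearts, 304% ± 21.3 in MI_vehicle hearts and 351% ± 18.6 in sham_vehicle hearts. Cd86 stood at 5.99% ± 2.02 in MI_DCA hearts, 4.57% ± 1.44 in MI_vehicle hearts and 5.05% ± 1.24 in sham_vehicle hearts, and H2-Oa at 0.615% ± 0.441 in MI_DCA hearts, 0.882% ± 0.287 in MI_vehicle hearts and 0.817% ± 0.540 in sham_vehicle hearts. Both overlapped between all groups. These ratios follow from the values above and were not tested.

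Whether the other genes followed the chains was asked next from heart to heart within a group, which leaves out the group means that had chosen the genes. With all libraries centred on their group mean, H2-Ab1 was most like Cd74 (r = 0.963), H2-Aa (0.959) and H2-Eb1 (0.943), which ranked 1 to 3 among 12230 genes. H2-DMb1 (0.854) ranked 5 and H2-DMa (0.768) ranked 8. Ciita ranked 396 (0.602) and Ctss 908 (0.543), high among all genes but below the H2-DM genes. H2-Oa (0.10, rank 5830) and Cd86 (-0.024, rank 6751) stood near the median of all genes, 0.061. For H2-Oa and Ciita counting error of few reads adds to the spread, and its part in the low r was not tested. These r share libraries, depth and the spread of the hearts along the first principal component, and carry no p.

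**Figure D3:**
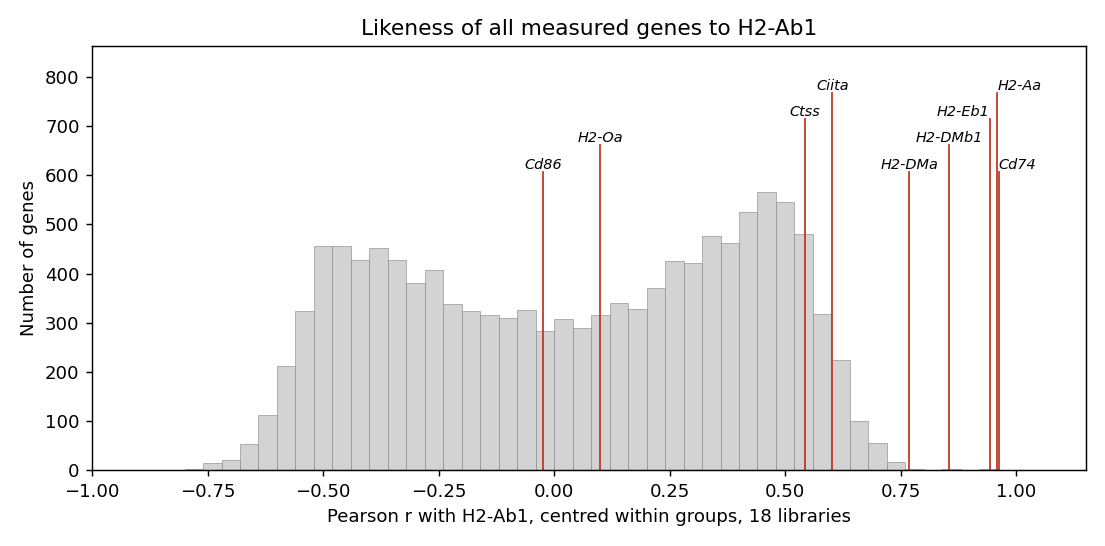
Number of genes (bars, 12230 genes in all) by Pearson r of log2(FPKM + 1) with H2-Ab1 over 18 libraries centred within their groups, with the members as vertical lines. Cd74, H2-Aa, H2-Eb1, H2-DMb1 and H2-DMa lie in the far right tail at 0.768 to 0.963, Ciita and Ctss lie at 0.602 and 0.543 to the left of these, and Cd86 and H2-Oa lie near 0.

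The 10 genes outside the list most like H2-Ab1 on this measure were Samd1 (rank 4, r = 0.855), Relb (rank 6, 0.792), Apex1 (rank 7, 0.776), Gm13889, Amn1, Pknox1, Osbpl10, Ankrd1, Ulk3 and Ahi1 (ranks 9 to 15, 0.742 to 0.755). Relb encodes an NF-kB subunit and Ankrd1 a stretch-responsive cardiomyocyte protein, and their mean levels were 10.2 and 3223 FPKM in MI_DCA hearts, 11.7 and 4692 FPKM in MI_vehicle hearts and 5.71 and 1356 FPKM in sham_vehicle hearts.

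Within single groups the highest r were those of H2-Aa and Cd74 in MI_DCA hearts. In MI_DCA hearts H2-Ab1 went with H2-Aa at r = 0.992 (exact permutation p = 0.00139, the smallest that the 720 pairings can give, adjusted 0.03 over 27 pairs; Spearman rho 1.00, p = 0.00278, adjusted 0.075). Without the 2 hearts farthest from the median of H2-Ab1 r was 0.842. Cd74 had r = 0.991 in MI_DCA hearts, 0.702 in MI_vehicle hearts and 0.962 in sham_vehicle hearts. H2-DMb1 had r = 0.957 in MI_DCA hearts, 0.561 in MI_vehicle hearts and 0.740 in sham_vehicle hearts. Ciita had r = 0.670 in MI_DCA hearts (exact permutation p = 0.158, adjusted 0.267), 0.854 in MI_vehicle hearts (p = 0.0472, adjusted 0.106) and 0.480 in sham_vehicle hearts (p = 0.367, adjusted 0.430). Spearman's rho of Ciita was 0.841 in MI_DCA hearts (exact permutation p = 0.0444, adjusted 0.197), 0.551 in MI_vehicle hearts (p = 0.272, adjusted 0.432) and 0.657 in sham_vehicle hearts (p = 0.175, adjusted 0.364). Without the 2 hearts farthest from the median its r was 0.357 in MI_DCA hearts, 0.437 in MI_vehicle hearts and 0.725 in sham_vehicle hearts. Ctss had r = 0.518 in MI_DCA hearts, 0.617 in MI_vehicle hearts and 0.748 in sham_vehicle hearts, and Cd86 had 0.115 in MI_DCA hearts, 0.132 in MI_vehicle hearts and -0.498 in sham_vehicle hearts. Of the 27 pairs 25 were positive and 8 passed at an adjusted p under 0.05 by Pearson's r and none by Spearman's rho. None of the 8 was a pair with Ciita, Ctss, Cd86 or H2-Oa. With median-ratio scaling 0 of 27 passed, although r of the pair with H2-Aa in MI_DCA hearts was still 0.991. Several pairs rested on the extreme hearts, those of the chains among them. Without the 2 farthest, r of H2-DMb1 in MI_DCA hearts was 0.223 and r of H2-DMa was -0.328, r of H2-Eb1 in MI_vehicle hearts was -0.0257 (0.802 with all 6) and r of H2-Aa in sham_vehicle hearts was -0.293 (0.858 with all 6). Leaving out 1 heart, r of Cd74 in MI_vehicle hearts was as low as 0.251.

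**Figure D4:**
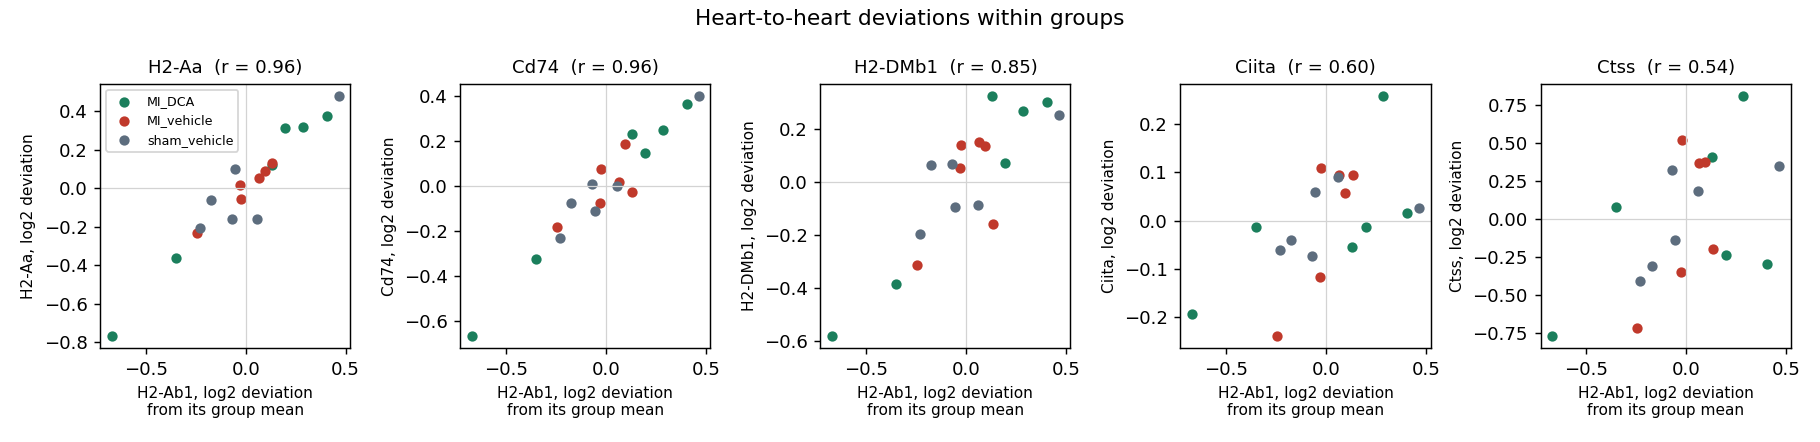
Deviation from the group mean, in log2(FPKM + 1), of H2-Aa, Cd74, H2-DMb1, Ciita and Ctss (vertical axes) against that of H2-Ab1 (horizontal axis), 1 point per heart, coloured by group. H2-Aa and Cd74 fall on a line (r = 0.96 each), H2-DMb1 less so (0.85), and Ciita and Ctss scatter (0.60 and 0.54).

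The position of a heart on the first principal component moved with the members too. Over the 12 infarcted hearts, centred within groups, r with the first principal component was 0.790 for H2-DMa, 0.782 for Ctss, 0.776 for H2-DMb1, 0.686 for Cd74, 0.668 for Ciita and 0.614 for H2-Ab1. It was 0.564 for H2-Aa, 0.540 for H2-Eb1, 0.458 for Cd86 and 0.168 for H2-Oa. In MI_DCA hearts the 3 nearest sham had 24.0, 30.3 and 44.7 FPKM of H2-Ab1. The other 3 had 42.6, 47.6 and 51.8 FPKM, so these sets overlapped. Within MI_DCA hearts r with the component was 0.659 for H2-Ab1, 0.631 for H2-Eb1 and 0.610 for H2-Aa. The part of this position in the chain levels was not tested.

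Markers of cells that carry class II were read beside these values. The 9 infiltrating monocyte markers summed to 77.3 to 340 FPKM in MI_DCA hearts, 135 to 435 FPKM in MI_vehicle hearts and 24.8 to 47.3 FPKM in sham_vehicle hearts, and 9 of 9 rose in MI_vehicle against sham hearts by limma, where 38.3% of all genes did. In MI_DCA against MI_vehicle hearts none of the 9 was called, where 0% of all genes were. All 9 fold changes were negative, with a median of -0.65. The 10 general macrophage markers summed to 485 to 897 FPKM in MI_DCA hearts, 649 to 1243 FPKM in MI_vehicle hearts and 447 to 758 FPKM in sham_vehicle hearts. All 10 were negative in MI_DCA against MI_vehicle hearts, with a median of -0.49, and none was called, where 0% of all genes were. The 9 resident cardiac macrophage markers summed to 119 to 202 FPKM in MI_DCA hearts, 117 to 201 FPKM in MI_vehicle hearts and 169 to 195 FPKM in sham_vehicle hearts. Gas6 had the largest part, averaging 70.3 FPKM in MI_DCA, 62.0 FPKM in MI_vehicle and 84.8 FPKM in sham_vehicle hearts. Of 8 tested in MI_DCA against MI_vehicle hearts none was called, where 0% of all genes were. Of these 4 were negative, with a median of -0.06, from -0.85 for Cx3cr1 to 0.23 for Cbr2. Gas6, Cx3cr1 and Cbr2 were named after their values were seen. The part of these cells in the class II values was not tested.

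The 13 dendritic cell markers summed to 56.3 to 111 FPKM in MI_DCA hearts, 70.6 to 124 FPKM in MI_vehicle hearts and 43.5 to 58.0 FPKM in sham_vehicle hearts. Most of the sum was Fscn1, an actin-bundling gene, which had 32.9 to 86.9 FPKM in MI_DCA hearts, 37.4 to 99.7 FPKM in MI_vehicle hearts and 24.6 to 28.6 FPKM in sham_vehicle hearts. Mgl2, a lectin gene of the list, had 4.70 to 13.9 FPKM in MI_DCA hearts, 3.54 to 13.4 FPKM in MI_vehicle hearts and 7.88 to 16.8 FPKM in sham_vehicle hearts. Flt3, the receptor that marks conventional dendritic cells, averaged 0.435 ± 0.182 FPKM in MI_DCA hearts, 0.770 ± 0.171 FPKM in MI_vehicle hearts and 0.295 ± 0.125 FPKM in sham_vehicle hearts. Xcr1, of the cross-presenting subset, averaged 0.675 ± 0.188 FPKM in MI_DCA hearts and 0.630 ± 0.273 FPKM in MI_vehicle hearts, which overlapped. It averaged 0.307 ± 0.129 FPKM in sham_vehicle hearts. Flt3, Xcr1, Fscn1 and Mgl2 were named after their values were seen. Of 9 dendritic cell markers tested in MI_DCA against MI_vehicle hearts none was called, where 0% of all genes were. Of these 9, 7 were negative, and the median of the 9 was -0.20. In MI_vehicle against sham hearts 2 of 7 rose and 1 fell, where 38.3% and 20.1% of all genes did. Itgax, among those that rose, passed the filter through the MI_vehicle hearts. The 8 B cell markers were at or near the detection limit, with sums of 1.57 to 3.79 FPKM in MI_DCA hearts, 1.96 to 4.71 FPKM in MI_vehicle hearts and 1.34 to 2.96 FPKM in sham_vehicle hearts. Within groups, the summed infiltrating monocyte markers had a centred r of 0.912 with Ctss and 0.559 with H2-Ab1 over 18 libraries. The general macrophage markers had 0.832 with Ctss and 0.287 with H2-Ab1, and the dendritic cell markers, mostly Fscn1, 0.593 with Ctss and 0.632 with H2-Ab1. The summed resident macrophage markers, in which Gas6 had the largest part, had -0.338 with Ctss and -0.510 with H2-Ab1.

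Other genes of the pathway, taken from lists made with earlier results of these hearts known, were tested with limma. In MI_DCA against MI_vehicle hearts 0 of 35 above the filter were called, where 0% of all genes were. Of these 35, 30 had negative fold changes, and the median of the 35 was -0.17. At an unadjusted p under 0.05 there were 9, all lower, against 9.22% of all genes lower and 1.6% higher. The median over all genes tested was -0.065, and the share of all genes below 0 was not counted. With median-ratio scaling 23 of the 35 were negative. Without the 4 hearts nearest sham 0 were called, as were 0 of all 12004 genes, and 31 were negative. In MI_vehicle against sham hearts 18 of 36 rose, against 38.3% of all genes, and 3 fell, against 20.1%, and the counts were the same without MI_vehicle replicate 4. Of the 18 that rose 3, and of the 3 that fell 2, had a median under 1 FPKM in the lower group and so passed the filter through the group where they were high, which favours a call. They were H2-DMb2, Marchf1 and Tnfsf9, and Ctla4 and Cd28. The median over all genes in that comparison was 0.116 as deposited and -0.005 with median-ratio scaling, a shift against which small rises are to be read.

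Of the class II chains outside the members only H2-DMb2 passed the filter. It passed the filter through the MI_vehicle hearts and rose in them, at 2.71 ± 0.621 FPKM against 0.872 ± 0.293 FPKM in sham hearts (log2 fold change 0.99, SE 0.14, adjusted p = 0.000139 by limma), and averaged 1.22 ± 0.731 FPKM in MI_DCA hearts, where it was not called against MI_vehicle hearts (-0.79, SE 0.20, adjusted p = 0.407). H2-Ob, the beta chain of the H2-DM inhibitor, lay below the filter, at 0.308 ± 0.157 FPKM in MI_DCA hearts, 0.667 ± 0.151 FPKM in MI_vehicle hearts and 0.418 ± 0.105 FPKM in sham_vehicle hearts. The two-sided exact permutation p was 0.00649 for MI_DCA against MI_vehicle hearts, unadjusted among 15 genes below the filter. It was 0.0108 for MI_vehicle against sham hearts, unadjusted among 14. H2-Ob was named after its values were seen, so these p are only a description. H2-Eb2 and the I-E alpha pseudogene H2-Ea-ps averaged under 0.1 FPKM in every group.

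Of 7 genes of the factors that Ciita docks on tested in MI_vehicle against sham hearts 2 rose, a share below that of all genes (38.3%). They were Rfxank, a subunit of RFX (0.53, SE 0.11, adjusted p = 0.00146), and Nfya, a subunit of NF-Y (0.34, SE 0.07, adjusted p = 0.00134). Rfx5, the DNA-binding RFX subunit, averaged 2.94 ± 0.571 FPKM in MI_DCA hearts, 3.0 ± 0.239 FPKM in MI_vehicle hearts and 3.15 ± 0.626 FPKM in sham_vehicle hearts. The median of the 7 was -0.04 in MI_DCA against MI_vehicle hearts and 0.06 in MI_vehicle against sham hearts.

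On the interferon gamma path to Ciita, 5 of 9 tested genes rose in MI_vehicle against sham hearts and 1 fell, where 38.3% and 20.1% of all genes did. Spi1, which encodes the myeloid factor PU.1, rose most (1.49, SE 0.19, adjusted p = 0.000108), at 29.1 ± 8.02 FPKM against 9.67 ± 2.60 FPKM in sham hearts. Ifngr2, a receptor chain, fell (-0.39, SE 0.09, adjusted p = 0.00221). Ifng itself was listed at 0 in all 6 MI_DCA hearts and averaged 0.0367 FPKM in MI_vehicle hearts and 0.0283 FPKM in sham_vehicle hearts, at or under about 1 read. None of the 9 was called in MI_DCA against MI_vehicle hearts, where 0% of all genes were, with 8 negative and a median of -0.17.

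Of 10 endosomal processing genes 6 rose in MI_vehicle against sham hearts, where 38.3% of all genes rose. Ifi30, a thiol reductase of endosomes, rose most (1.56, SE 0.21, adjusted p = 0.000139), at 71.9 ± 25.3 FPKM against 22.8 ± 4.12 FPKM in sham hearts. It averaged 47.6 ± 13.8 FPKM in MI_DCA hearts (-0.57, SE 0.27 against MI_vehicle, adjusted p = 0.462). Marchf1, a ubiquitin ligase that removes class II from the surface, passed the filter through the MI_vehicle hearts and rose by 0.50 in them (SE 0.13, adjusted p = 0.00493). Il10, which lowers surface class II through that ligase in human monocytes, averaged 0.0750 ± 0.0625 FPKM in MI_DCA hearts, 0.242 ± 0.0634 FPKM in MI_vehicle hearts and 0.0533 ± 0.0653 FPKM in sham_vehicle hearts. For MI_DCA against MI_vehicle and for MI_vehicle against sham hearts the unadjusted exact permutation p was 0.00217, the smallest that 6 against 6 hearts can give. Il10 was named after its values were seen, among 15 and 14 genes below the filter, so this p is only a description. The Il10 levels stand for a few reads.

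Of 5 tested genes of the costimulation list 3 rose in MI_vehicle against sham hearts, where 38.3% of all genes rose. Tnfsf9, the 4-1BB ligand gene, rose most (0.97, SE 0.23, adjusted p = 0.00307 by limma). It passed the filter through the MI_vehicle hearts, since its median in sham hearts was 0.82 FPKM, which favours a call. Cd274 (0.58, SE 0.19) and Cd40 (0.50, SE 0.13) were the others. Cd80, which shares the receptors of Cd86, lay below the filter in the comparisons with sham hearts, at 1.2 ± 0.658 FPKM in MI_DCA hearts, 1.60 ± 0.661 FPKM in MI_vehicle hearts and 0.478 ± 0.136 FPKM in sham_vehicle hearts (unadjusted exact permutation p = 0.00217 for MI_vehicle against sham). Cd80 was named after its values were seen, among 14 genes below the filter in MI_vehicle against sham, so this p is only a description. Cd80 passed the filter in MI_DCA against MI_vehicle hearts and was not called (-0.26, SE 0.21, adjusted p = 0.616 by limma). On the T cell side both tested receptors of Cd80 and Cd86 fell in MI_vehicle against sham hearts, where 20.1% of all genes fell. They were Ctla4 (-0.60, SE 0.19, adjusted p = 0.0143 by limma) and Cd28 (-0.52, SE 0.09, adjusted p = 0.000654 by limma). Both passed the filter through the sham hearts, since the median in MI_vehicle hearts was 0.705 FPKM for Ctla4 and 0.80 FPKM for Cd28. Cd4, the coreceptor for class II, averaged 0.402 ± 0.165 FPKM in MI_DCA hearts, 0.613 ± 0.157 FPKM in MI_vehicle hearts and 0.657 ± 0.183 FPKM in sham_vehicle hearts, and Cd3e, a T cell receptor subunit, averaged 0.160 ± 0.0767 FPKM in MI_DCA hearts, 0.205 ± 0.136 FPKM in MI_vehicle hearts and 0.210 ± 0.0721 FPKM in sham_vehicle hearts.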

How the data were processed

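The authors deposited, for each of 18 libraries, 1 file of gene values and 1 of transcript values, rounded to 2 decimals. Per the labels, RNA Access libraries, which enrich coding RNA by capture, were read as single 50-base reads. GRCm38.p6, RSEM 1.2.12, Bowtie2 2.2.5 and DESeq2 1.4.5 are listed, without roles, per the submitters' processing notes. The files do not name the unit. The deposited values were taken as FPKM, since their sum varied between libraries (coefficient of variation 3.09%) while the sum of value times transcript length varied by 0.676%. Depth was estimated from the steps of low values, searched between 8000000 and 16000000 reads; with no counts, no counting intervals are given.

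Groups came from the labels. The members and lists were chosen with earlier results of these data known. The planned test of the members between MI_DCA and MI_vehicle is reported only as a count, because their levels had chosen them. Genes that reached 1 FPKM in 6 or more of 12 libraries entered limma 3.58.1 in R 4.3.3 (log2 of FPKM + 1, intensity trend), each comparison on its own 2 groups, with Benjamini-Hochberg adjustment over all genes and a call under 0.05. Pathway genes below the filter had an exact permutation test of mean FPKM over 924 regroupings. Named were all members, the 10 genes most like H2-Ab1 and transcripts averaging at least 0.1 FPKM. The called gene of each pathway list with the largest rise and fall was named for MI_vehicle against sham hearts. Pathway genes called in MI_DCA against sham hearts were not described. Rfx5, H2-Ob, Il10, Cd80, Cd274, Cd40, Cd4, Cd3e, Flt3, Xcr1, Fscn1, Mgl2, Gas6, Cx3cr1 and Cbr2 were added after their values were seen. The test was checked on data with known changes. Alternatives were other scalings, pseudocounts, filters, a fit of all groups, a replicate block and leaving out libraries. Same-numbered libraries did not deviate together consistently (r from -0.440 to 0.686), so replicate numbers were not taken as pairs. In MI_DCA against MI_vehicle hearts r was 0.686, 0.667 and 0.418 for numbers 2, 6 and 5. It was 0.113, -0.397 and -0.440 for numbers 3, 4 and 1.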

Additional observations from a re-analysis of the deposited data

Results flagged for a closer look

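In 30 groups of 6 hearts (10 genes in 3 groups), 3 held a heart far from the others by Dixon's test, where chance flags about 1 in 20. H2-Ab1 in sham_vehicle replicate 1 stood at 54.31 FPKM, with a gap of 0.643 of the group's range to the next heart. Cd74 in the same heart stood at 181.04 FPKM, with a gap of 0.671 of the range. These flags share a heart and are not independent of each other. H2-Oa in MI_vehicle replicate 6 stood at 1.01 FPKM, with a gap of 0.696 of the range.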

How the results depend on the processing

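The counts of members and of pathway genes called kept their direction in the alternatives run, but several changed in size, among them the following. Members called higher in MI_vehicle against sham hearts numbered 8 of 8 as reported. They numbered 7 with median-ratio scaling, with quantile normalization and without MI_vehicle replicate 2, and 9 of 10 with no filter. Members called higher in MI_DCA against sham hearts numbered 2 as reported and 1 with median-ratio scaling, quantile normalization, TPM, no filter or the replicate block, and 1 to 3 leaving out each heart in turn. Pathway genes called lower in MI_vehicle against sham hearts numbered 3 as reported and 7 with quantile normalization. Correlations with H2-Ab1 that passed numbered 8 as reported, 0 with median-ratio scaling and 0 to 8 leaving out each heart in turn, where 5 hearts allow few small p-values. Members whose MI_DCA hearts all lay below the MI_vehicle hearts numbered 5 as reported, 4 to 5 with other scalings and 5 to 6 leaving out each heart in turn. In MI_DCA against MI_vehicle and MI_vehicle against sham hearts no member's fold change reversed under any scaling, filter or left-out heart. H2-Ab1 in MI_DCA against sham hearts ranged from -0.09 to 0.13. The causes were not tested. The replicate block changed no other count of members or pathway genes called that is reported here. The half-site pair GNAAC and GATTGG, added after reading the windows, stood in 4 member windows, and the planned pair in 0. Depth limits H2-Oa, Ciita, H2-Ob, Il10 and Ifng, whose values stand for few reads.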
